A study of Homo sapiens with 14 samples.

Results

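The hypoxia and glycolysis genes described here are HIF1A and 9 genes known as its targets, namely EGLN3, SLC2A1, HK2, PFKFB3, LDHA, PDK1, VEGFA, CA9 and BNIP3. They make up 10 of the 20033 protein-coding genes of the annotation. They were chosen for their known function and not by a value in these data, though earlier results of these data were known. KLF4 binding at each gene was read from ChIP-seq peaks whose summit lay in a window from 10 kb upstream of the transcription start site (TSS) to 2 kb past the end of the gene. The cells were BEAS-2B, an established human bronchial epithelial line, used as wild type (WT) or with a CRISPR-Cas9 knockout of Nrf2 (Nrf2 KO). Nrf2 is a transcription factor of the oxidative stress response. Each genotype was either left untreated (control) or exposed to 1 µM trivalent arsenic (As3+) for 6 h. Per the study's methods, KO cells came from edited colonies without detectable Nrf2 protein and WT cells from colonies that kept it, and whether a library came from 1 colony is not stated. There was 1 KLF4 library per condition, so the study's questions, whether As3+ changes KLF4 binding and whether this depends on Nrf2, can be described at these genes but not tested. No mRNA level, oxygen level or HIF1A binding was analysed here.

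HIF1A is the oxygen-regulated subunit of hypoxia-inducible factor. When oxygen is plentiful, prolyl hydroxylases of the EGLN family mark HIF1A for destruction, and when oxygen is scarce it accumulates, pairs with ARNT and binds hypoxia response elements in its target genes. Its targets raise glucose uptake and glycolysis, divert pyruvate from the mitochondria, start the growth of blood vessels and help cells to regulate acid. KLF4 is a zinc finger factor that binds GC-rich and CACCC-like DNA and is known for its roles in epithelial differentiation and stemness. BEAS-2B cells are a common model of the airway epithelium in studies of arsenic carcinogenesis.

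The lists behind these results were of very unequal length, and this bears on every result that follows. On the autosomes, X and Y, the WT control list held 751 peaks, the WT As3+ list 29870, the Nrf2 KO control list 76545 and the Nrf2 KO As3+ list 130. The depth behind a single peak also differed, with medians of 25, 10, 7 and 19 fragments at the summit in the same order. The lowest local background at any listed peak was 1.9, 0.757, 0.491 and 1.64 fragments. Differences in list length, depth and conditions cannot be told apart with 1 library each.

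Several promoter peaks of the 10 genes had the core letters of a hypoxia response element near the summit. In windows of 200 bp, so had 48% of all promoter peaks in WT As3+ and 46.4% in Nrf2 KO control. The share over all protein-coding TSS was 43.3%. The sequences that follow are the reference bases around the summit of the strongest promoter peak of 8 genes, in whichever list held it. Promoter means within 2 kb of the canonical TSS. The summits of LDHA, PFKFB3, PDK1 and BNIP3 are from WT As3+, and those of HK2, HIF1A, SLC2A1 and EGLN3 from Nrf2 KO control. The sequences show which words lie near the KLF4 summit in that list. They were read from GRCh38 5′ to 3′ on the strand of the gene, up to 200 bases in length, without the exons of protein-coding genes. Capitals mark the core of the hypoxia response element, ACGTG or GCGTG on either strand, and the KLF words CCACGCCC and CCACACCC on either strand. The words overlap, since CCACGCCC holds GCGTG on its other strand and the palindrome CACGTG holds ACGTG on both.
HK2, chr2:74834968-74835167, plus strand: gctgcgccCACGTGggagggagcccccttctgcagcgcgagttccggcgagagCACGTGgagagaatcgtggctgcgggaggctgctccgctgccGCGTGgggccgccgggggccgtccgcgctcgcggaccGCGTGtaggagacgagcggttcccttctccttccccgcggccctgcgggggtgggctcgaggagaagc
LDHA, chr11:18394346-18394545, plus strand: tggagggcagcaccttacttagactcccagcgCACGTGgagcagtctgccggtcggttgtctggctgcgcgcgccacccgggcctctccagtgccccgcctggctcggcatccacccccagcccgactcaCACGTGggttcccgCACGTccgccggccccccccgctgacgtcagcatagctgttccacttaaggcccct
HIF1A, chr14:61695886-61696085, plus strand: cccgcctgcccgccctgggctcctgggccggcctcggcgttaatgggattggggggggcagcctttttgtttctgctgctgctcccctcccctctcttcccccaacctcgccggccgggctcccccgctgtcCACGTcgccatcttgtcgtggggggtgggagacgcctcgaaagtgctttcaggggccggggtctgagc
PFKFB3, chr10:6203829-6204028, plus strand: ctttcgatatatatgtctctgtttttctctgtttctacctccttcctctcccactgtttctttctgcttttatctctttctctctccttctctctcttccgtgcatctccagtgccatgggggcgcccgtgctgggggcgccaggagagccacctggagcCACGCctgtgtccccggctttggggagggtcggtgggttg
SLC2A1, chr1:42957765-42957964, minus strand: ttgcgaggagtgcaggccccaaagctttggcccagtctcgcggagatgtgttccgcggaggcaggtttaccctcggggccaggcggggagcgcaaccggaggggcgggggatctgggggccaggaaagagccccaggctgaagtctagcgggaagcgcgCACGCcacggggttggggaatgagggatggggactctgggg
PDK1, chr2:172555911-172556006, plus strand: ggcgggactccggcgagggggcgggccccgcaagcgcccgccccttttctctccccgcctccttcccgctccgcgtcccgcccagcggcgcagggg
EGLN3, chr14:33951082-33951187, minus strand: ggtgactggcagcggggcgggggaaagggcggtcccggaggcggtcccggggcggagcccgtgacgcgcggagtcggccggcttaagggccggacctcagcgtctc
BNIP3, chr10:131981704-131981760, minus strand: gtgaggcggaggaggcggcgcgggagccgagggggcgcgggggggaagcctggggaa

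HK2 and LDHA held the most capitals, with 4 and 3 separate runs. In HK2 the KLF4 summit lay 941 bp into the gene, and the window held CACGTG at 2 places. In LDHA the summit lay 117 bp upstream of the TSS, and the window again held CACGTG at 2 places. HIF1A, PFKFB3 and SLC2A1 had 1 run each, and the printed stretches of PDK1, EGLN3 and BNIP3, which are shorter because exons were left out, had none. The summits of PDK1 and BNIP3 themselves fall outside their printed stretches. With the exons, the window of 200 bases around the summit held 2 matches at PDK1, both ACGTG, and 0 at EGLN3 and BNIP3. The same window was read at each gene's strongest promoter peak in the other library, WT As3+ or Nrf2 KO control. There the core was found at HK2, PDK1 and BNIP3, and not at LDHA, HIF1A, PFKFB3, SLC2A1 and EGLN3. None of the 8 printed promoter stretches held a KLF word. A match is a description of the letters and not a measured site of HIF1A or KLF4.

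KLF4 peaks at all 10 genes were listed in the WT As3+ and the Nrf2 KO control libraries, and at none of the 10 in the WT control and the Nrf2 KO As3+ libraries. In WT cells, 0 of 10 genes had a peak in the control and 10 of 10 after As3+. Across all protein-coding genes the corresponding shares were 2.51% and 66.5%. In Nrf2 KO cells the order was turned, with 10 of 10 genes in the control, where 81% of all genes had a peak, and 0 of 10 after As3+, where 0.439% did. Each gene also had at least 1 promoter peak in both of the long lists. The share of all genes with a promoter peak was 52.5% in WT As3+ and 67.5% in Nrf2 KO control, and it was 0.794% in WT control and 0.195% in Nrf2 KO As3+. These 10 genes thus had peaks in the libraries in which most genes had them, and not in those in which few did.

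**Figure D1:**
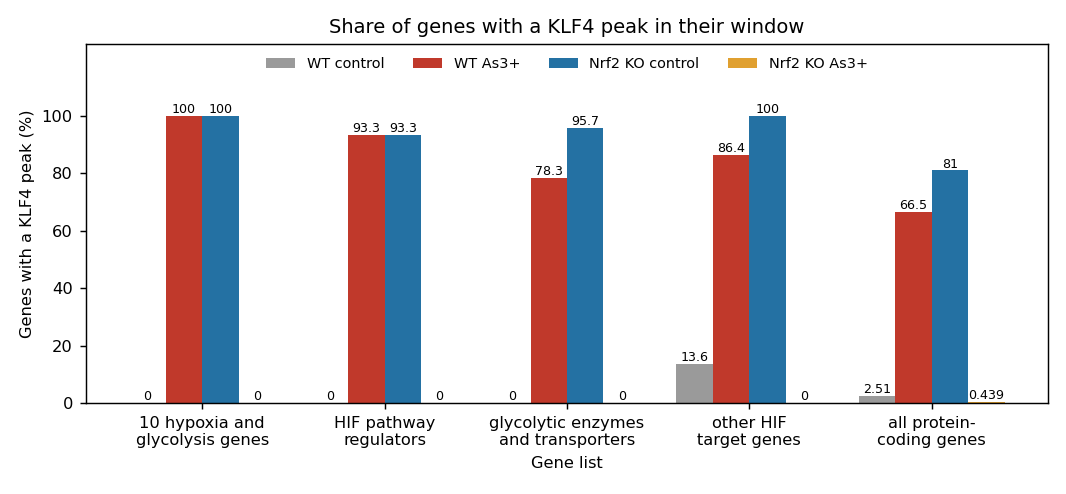
Share of genes with a KLF4 peak in their window, in %, for the 10 hypoxia and glycolysis genes, 3 further lists of the pathway and all protein-coding genes. Each bar is 1 library. The 10 genes stand at 100% in WT As3+ and Nrf2 KO control and at 0% in the others, and all protein-coding genes follow the same order at 66.5%, 81%, 2.51% and 0.439%.

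The 4 comparisons of the design gave the same picture gene by gene. In WT cells, 10 of 10 genes had a peak after As3+ only, as had 64% of all genes, and 0 of 10 had one in the control only, as had 0.0399% of all genes. Between the untreated cells, 10 of 10 genes had a peak in Nrf2 KO only, as had 78.5% of all genes. In Nrf2 KO cells, 10 of 10 genes had a peak in the control only, as had 80.6% of all genes. Between the As3+-treated cells, 10 of 10 had a peak in WT only, as had 66.1% of all genes. The pattern shared by all 10, with peaks in WT As3+ and Nrf2 KO control only, was found at 61.3% of all genes.

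Absence from a list means only that a site did not pass that list's threshold, so the size of the difference was bounded. The listed fold enrichment and p were turned into a number of fragments at the summit (n) and a local background (λ), and n/λ is given as fragments over expected. In the WT control a site could hold up to 4.73 times the expected number and go unlisted (9 fragments at a background of 1.9), and in Nrf2 KO As3+ up to 5.45 times (9 fragments at 1.65). Of the 30 WT As3+ peaks at these genes, 14, in 8 genes, had a 95% interval that lay wholly above the WT control bound. Over the whole list 25.9% of peaks did, and 31% of all protein-coding genes had such a peak. HIF1A and CA9 were the genes of the set without one. Of the 59 Nrf2 KO control peaks, 19, in 8 genes, lay wholly above the Nrf2 KO As3+ bound, beside 24.6% of the list and 49.2% of all genes, and CA9 and LDHA were without one. For the remaining peaks a difference was not detectable at this depth. The intervals are exact Poisson (Garwood) intervals, which cover counting error in the listed library only and no variation between cultures.

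**Figure D2:**
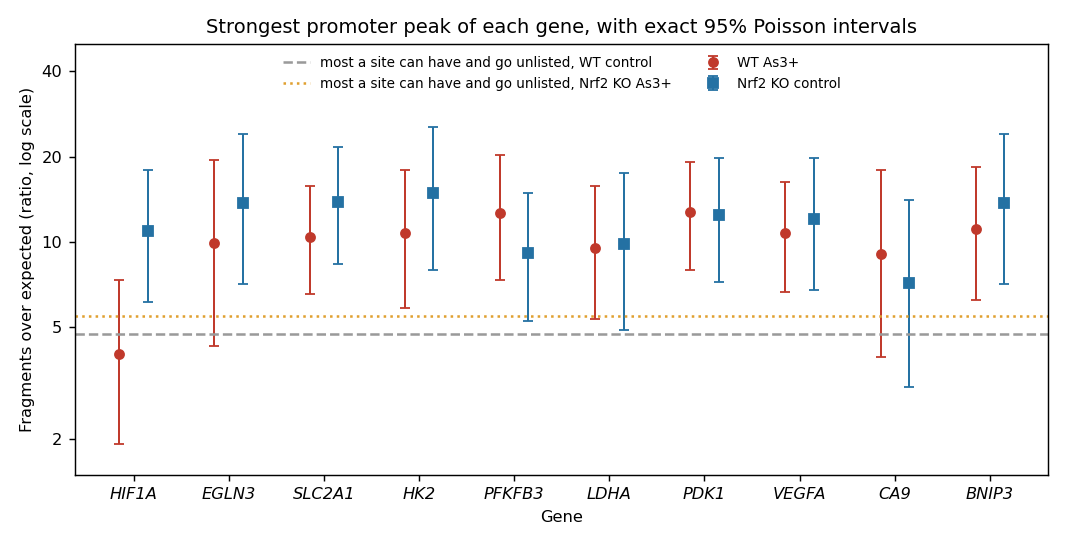
Fragments over expected (n/λ, log scale) at the strongest promoter peak of each gene in WT As3+ (circles) and Nrf2 KO control (squares), with exact 95% Poisson intervals. The dashed and dotted lines are the highest values a site can have and go unlisted in WT control (4.73) and Nrf2 KO As3+ (5.45), and HIF1A in WT As3+, at 4.00, is the only point below them.

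The number of peaks varied widely among the 10 genes. In WT As3+ the counts ran from 1 to 7 with a median of 2, against a median of 1 over all protein-coding genes. In Nrf2 KO control they ran from 1 to 18 with a median of 4, against 2. The windows were longer than usual, with a median of 55.1 kb against 39.5 kb. Per 100 kb of window, the 10 genes held 2.94 peaks in WT As3+ and 5.79 in Nrf2 KO control, against 1.93 and 4.5 over all genes. PFKFB3 and EGLN3 held the most in Nrf2 KO control, with 18 and 14, and both have annotated starts far upstream of the canonical one. With the limits of the canonical transcript, PFKFB3 kept 3 peaks in WT As3+ and 10 in Nrf2 KO control, and EGLN3 kept 1 and 4.

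**Figure D3:**
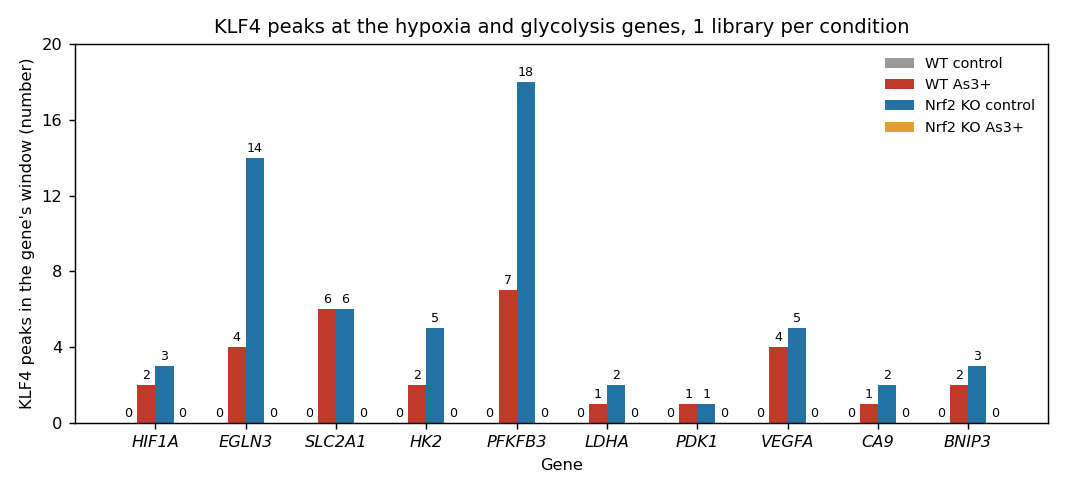
Number of KLF4 peaks in the window of each gene, by library. WT control and Nrf2 KO As3+ are at 0 for every gene, and the counts in Nrf2 KO control equal or exceed those in WT As3+ at every gene, with 18 against 7 at PFKFB3 and 14 against 4 at EGLN3.

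At HIF1A itself, the strongest promoter peak was the weakest of the set in WT As3+. Its peaks there lay 58 bp upstream of the TSS (chr14:61695165-61695752) and 548 bp downstream in intron 1 (chr14:61696038-61696237). They held 10 and 9 fragments, or 4.00 (95% interval 1.92 to 7.35) and 4.25 (1.94 to 8.07) times the expected number, with a −log10 q of 1.67 and 1.62. By −log10 p they ranked 28577th and 28906th of the 29870 peaks of that list. A single Nrf2 KO control peak covered both places (chr14:61695156-61696360). Its summit, 473 bp downstream of the TSS, held 15 fragments, 10.9 times the expected number (6.11 to 18). The peak had a −log10 q of 7.82 and rank 4463 of 76545. The promoter of HIF1A was thus near the floor of the WT As3+ list and well inside the Nrf2 KO control list. Weaker Nrf2 KO control peaks lay 2062 bp upstream of the TSS and, in intron 1, 6813 bp downstream of it, with 5 and 7 fragments. HIF1A-AS1, an antisense transcript, starts close by and lies over the upstream summits, so the promoter signal cannot be given to one of these genes alone.

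EGLN3, the prolyl hydroxylase PHD3 and itself a HIF target, had the strongest peak of the set, and it was not at the promoter. This peak lay 109 kb upstream of the canonical TSS, within the longer annotated transcripts of the gene (chr14:34059866-34060767 in WT As3+ and chr14:34060105-34060775 in Nrf2 KO control). In WT As3+ it held 22 fragments, 14.3 times the expected number (8.95 to 21.6), at rank 977. The Nrf2 KO control peak held 21 fragments, 38.2 times the expected number (23.7 to 58.4), at rank 65 of 76545. The nearest canonical start of any gene was that of EGLN3-AS1, and KLF4 was also listed at sites farther upstream. The bases around its Nrf2 KO control summit are shown because it was the strongest site outside a promoter. It was singled out after its values were seen, and the capitals have the same meaning as above.
EGLN3 distal peak, chr14:34060432-34060631, minus strand: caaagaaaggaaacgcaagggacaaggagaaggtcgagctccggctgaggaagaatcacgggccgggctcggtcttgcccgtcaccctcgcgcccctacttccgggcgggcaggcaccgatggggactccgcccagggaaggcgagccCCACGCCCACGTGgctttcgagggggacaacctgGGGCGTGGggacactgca

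The distal EGLN3 sequence held the KLF word CCACGCCC at 2 places, 1 on each strand, and the first of them overlapped a CACGTG by 1 base. The promoter of EGLN3 was more modest. In WT As3+ the only promoter peak lay in coding exon 1, 396 bp from the TSS (chr14:33950561-33950760), with 8 fragments and 9.89 times the expected number (4.27 to 19.5). The Nrf2 KO control list had peaks 14 bp upstream, with 12 fragments and 13.7 times (7.1 to 24), and 549 bp downstream, with 6 fragments and 12.2 times (4.48 to 26.6). A further peak in intron 1, 12.5 kb from the TSS, was listed in Nrf2 KO control only, with 9 fragments and 15.7 times the expected number (7.17 to 29.8). Near the outermost EGLN3 start, 511700 bp upstream of the canonical one, the closest canonical protein-coding TSS was that of SPTSSA. It encodes a subunit of the enzyme that begins sphingolipid synthesis. The 4 Nrf2 KO control peaks between 508 and 512 kb upstream therefore cannot be given to EGLN3 rather than to SPTSSA.

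SLC2A1, which encodes the glucose transporter GLUT1, had 6 peaks in each of the long lists. The strongest lay in intron 1. Its summit was 869 bp from the TSS in WT As3+ (chr1:42957821-42958247), with 22 fragments and 10.4 times the expected number (6.51 to 15.7) at rank 1623. The summit in Nrf2 KO control was 1003 bp from the TSS (chr1:42957677-42958103), with 19 fragments and 13.8 times (8.33 to 21.6) at rank 971. The peak over the TSS itself differed more. It held 13 fragments in WT As3+, 4.5 times the expected number (2.4 to 7.7), and 19 fragments in Nrf2 KO control, 12.7 times (7.64 to 19.8). SLC2A1-DT, a divergent transcript, starts beside this site. A peak in intron 2, 22.3 kb from the TSS, was listed in WT As3+ only, with 22 fragments and 8.28 times (5.19 to 12.5).

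HK2, the hexokinase that traps glucose in the cell as its phosphate, had WT As3+ peaks 73 bp upstream of the TSS (chr2:74833748-74834570) and 650 bp downstream in intron 1 (chr2:74834658-74835370). These held 10 fragments, 9.55 times the expected number (4.58 to 17.6), and 14 fragments, 10.7 times (5.85 to 17.9). A single Nrf2 KO control peak overlapped both (chr2:74834398-74835236), with its summit at 941 bp, 13 fragments and 14.9 times (7.92 to 25.4). It began downstream of the TSS and did not reach the upstream WT As3+ summit, which lay 1014 bp from its own. Sites at 40.8, 41.3 and 47.8 kb, in introns 7 and 11, were listed in Nrf2 KO control only, with 6 to 9 fragments. The upstream HK2 summit lay nearest to the start of the divergent transcript HK2-DT.

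PFKFB3 makes the sugar bisphosphate that activates phosphofructokinase. It had 3 promoter peaks in WT As3+, the strongest in intron 1, 997 bp from the TSS (chr10:6203512-6204102), with 17 fragments and 12.6 times the expected number (7.35 to 20.2). The promoter carried 5 peaks in Nrf2 KO control, the strongest 1604 bp from the TSS (chr10:6203877-6204717), with 16 fragments and 9.15 times (5.23 to 14.9). Distal sites upstream were also shared. At 38.9 kb upstream WT As3+ had 19 fragments and 9.49 times (5.71 to 14.8), and at 38.7 kb Nrf2 KO control had 15 fragments and 12.5 times (7.01 to 20.6). At 58.2 and 57.9 kb upstream, beside the outermost annotated start, the values were 11.1 (6.6 to 17.6) and 10.7 (5.52 to 18.7) times. The outermost PFKFB3 start was 209 and 59 bp from these summits. Among canonical starts, the nearest coding TSS was that of RBM17, a splicing factor gene, 55691 and 55959 bp away. All 5 peaks within the gene body past the promoter were in Nrf2 KO control only, with 5 to 7 fragments each.

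LDHA, the lactate dehydrogenase subunit that turns pyruvate into lactate, had 1 peak in WT As3+, with the summit 117 bp upstream of the TSS (chr11:18394121-18395137). It held 15 fragments, 9.5 times the expected number (5.32 to 15.7). The overlapping Nrf2 KO control peak had its summit 189 bp downstream (chr11:18394314-18394897) and held 11 fragments, 9.79 times (4.89 to 17.5). A further Nrf2 KO control peak lay in intron 1, 1686 bp from the TSS, with 12 fragments and 8.58 times (4.43 to 15).

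PDK1, the kinase that switches off pyruvate dehydrogenase, had 1 peak in each of the long lists, at nearly the same height over background. In WT As3+ the peak (chr2:172555586-172556833) held 22 fragments, 12.7 times the expected number (7.96 to 19.2), at rank 1156. The Nrf2 KO control peak (chr2:172555706-172556584) held 17 fragments, 12.4 times (7.21 to 19.8), at rank 2088. The summits lay 79 and 198 bp upstream of the canonical TSS and within PDK1-AS1, an antisense transcript. This was the strongest promoter peak of the 10 genes in WT As3+.

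VEGFA, the growth factor of blood vessels, had 4 peaks in WT As3+ and 5 in Nrf2 KO control. The strongest in WT As3+ lay 174 bp upstream of the TSS (chr6:43769563-43770260), with 21 fragments and 10.7 times the expected number (6.62 to 16.3). The overlapping peak in Nrf2 KO control (chr6:43769739-43770348) had 12 fragments and also 10.7 times (5.52 to 18.7). Intron 1 and intron 2 were shared too. In intron 1 the values were 8.31 (4.75 to 13.5) and 12 (6.73 to 19.8) times, and in intron 2 they were 8.26 (4.52 to 13.9) and 12.7 (6.76 to 21.7). All 4 WT As3+ peaks of VEGFA overlapped a Nrf2 KO control peak.

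CA9, a membrane carbonic anhydrase that helps cells to regulate acid, was the exception in position. Its peak in WT As3+ lay in intron 1, 1198 bp from the TSS (chr9:35674991-35675190), with 8 fragments and 9.07 times the expected number (3.92 to 17.9). The promoter peak in Nrf2 KO control lay at 32 bp in exon 1 (chr9:35673585-35674030), with 8 fragments and 7.12 times (3.07 to 14). The peaks did not overlap, which makes CA9 the gene of the set with no site shared between the lists. Both places lie under the overlapping gene ARHGEF39, and the second Nrf2 KO control peak, 8.97 kb from the TSS and past the end of CA9, lay in TPM2, which encodes a tropomyosin.

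BNIP3, a mitochondrial protein that promotes mitophagy, had its main peak over the TSS in both lists. In WT As3+ the summit lay in exon 1 at 119 bp (chr10:131981488-131981988), with 15 fragments and 11.1 times the expected number (6.23 to 18.4). The summit in Nrf2 KO control lay 16 bp upstream (chr10:131981415-131982068), with 12 fragments and 13.7 times (7.1 to 24). A weak site in intron 1 was shared as well, at 938 and 950 bp, with 8 and 5 fragments.

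**Figure D4:**
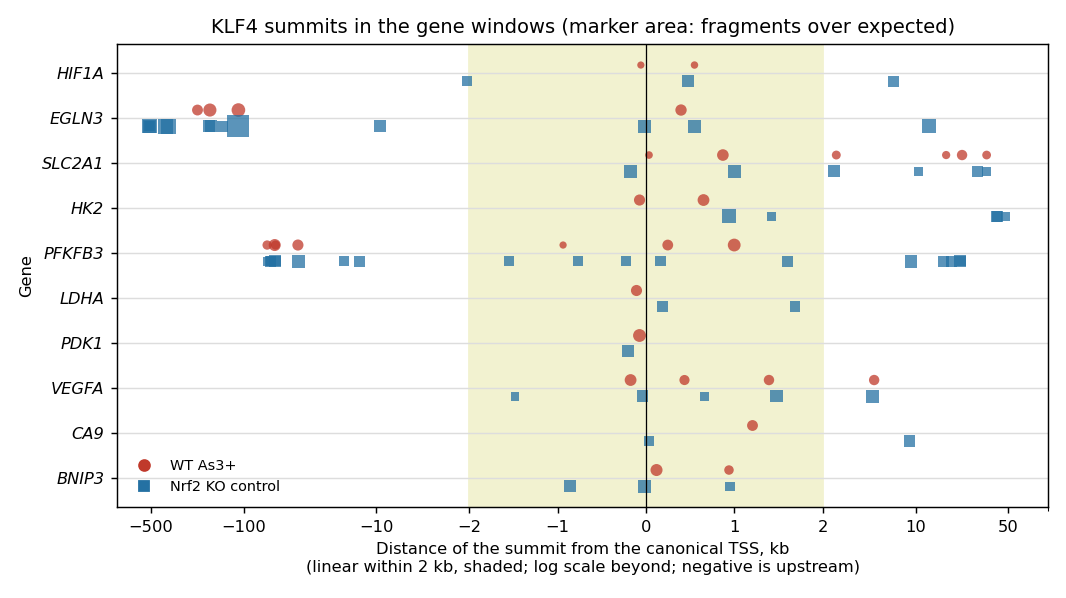
Position of every KLF4 summit in the windows of the 10 genes relative to the canonical TSS, in kb, for WT As3+ (circles) and Nrf2 KO control (squares). The axis is linear within 2 kb of the TSS (shaded) and logarithmic beyond, and marker area follows fragments over expected. Of the 30 WT As3+ summits, 16 have a Nrf2 KO control summit within 200 bp, and the largest marker is the distal EGLN3 site in Nrf2 KO control.

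Most WT As3+ peaks of the 10 genes overlapped a Nrf2 KO control peak, while most Nrf2 KO control peaks had no WT As3+ partner. Of the 30 WT As3+ peaks, 25 overlapped a Nrf2 KO control peak by at least 1 bp, against 55.6% of that whole list. Within promoters 17 of 18 did, against 78.8% of all promoter peaks, and outside promoters 8 of 12 did, against 36.3%. In the other direction 23 of 59 Nrf2 KO control peaks overlapped a WT As3+ peak, against 21.7% of the list. Of these, 16 of 23 were in promoters (50.5% of all promoter peaks) and 7 of 36 outside them (10.8%). These are counts in 2 single libraries and carry no test. The overlaps formed 26 pairs of peaks in 9 genes, with summits a median of 160 bp apart.

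In the 26 pairs the fragments over expected were higher in Nrf2 KO control in 17 and lower in 9, with a median ratio of 1.27. Over all 18017 overlapping pairs of the 2 lists it was higher in Nrf2 KO control in 72.7%, with a median ratio of 1.28, so the pairs at these genes were close to the lists as a whole. The 95% counting interval of the ratio, not adjusted for the 26 pairs, excluded 1 in 4 of them, each time with the higher value in Nrf2 KO control, as in 6.33% of all pairs. They were the pairs at the HIF1A promoter (ratios 2.73, interval 1.15 to 6.8, and 2.57, 1.05 to 6.66, against the same Nrf2 KO control peak), the distal EGLN3 site (2.68, 1.4 to 5.1) and the SLC2A1 TSS (2.82, 1.32 to 6.21). At HIF1A the paired summits lay 531 and 75 bp apart, so the first of these ratios sets different places side by side. In the other 22 pairs the interval spanned 1. It ran from 0.486 to 1.92 at PDK1 and from 0.248 to 3.34 at BNIP3 intron 1, so a difference within such limits could not be seen at this depth. These intervals take the local background of each list as exact. The pairs hold only sites that passed the threshold of both lists. A site could go unlisted at up to 5.28 times in WT As3+ and 6.11 times in Nrf2 KO control. The part of this in the ratios was not tested. At the distal EGLN3 site the fragments were nearly equal, 22 in WT As3+ and 21 in Nrf2 KO control. The ratio there came from the backgrounds, 1.54 and 0.549. At HIF1A and the SLC2A1 TSS both fragments and backgrounds differed. The HIF1A backgrounds were 2.5 and 2.12 in WT As3+ against 1.37 in Nrf2 KO control, with 10 and 9 fragments against 15. At the SLC2A1 TSS the backgrounds were 2.89 against 1.5, with 13 fragments against 19.

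**Figure D5:**
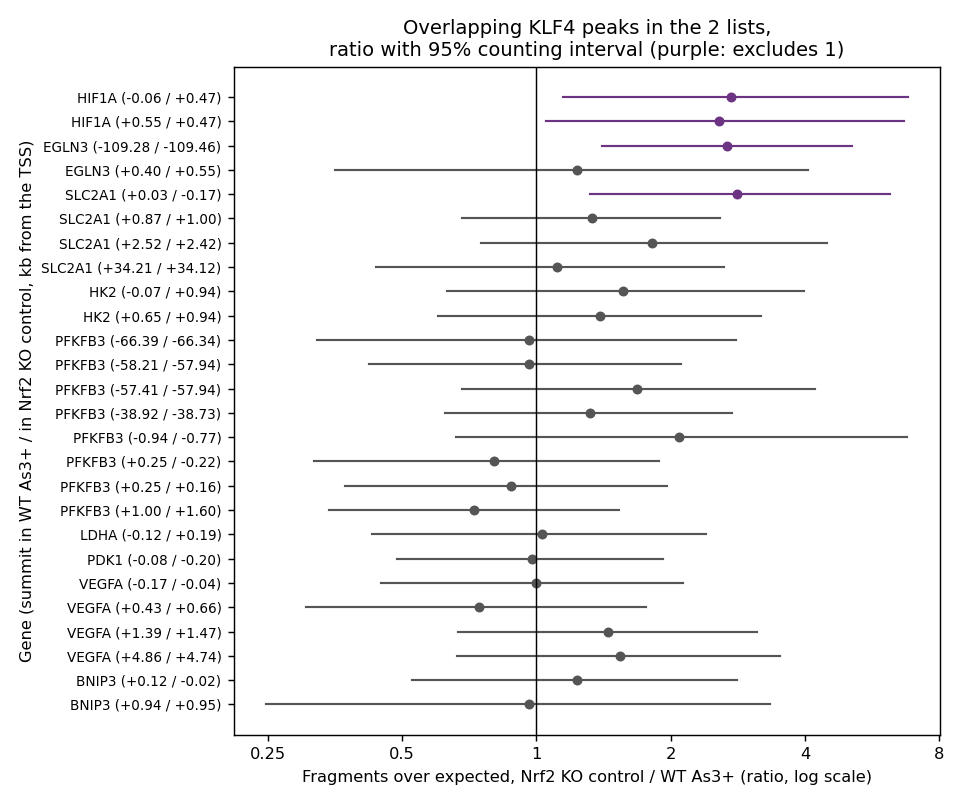
Ratio of fragments over expected, Nrf2 KO control to WT As3+, on a log scale, for the 26 pairs of overlapping peaks, with 95% counting intervals. Labels give the gene and the summit position in each library in kb from the canonical TSS. The 4 purple pairs, at HIF1A, EGLN3 and SLC2A1, exclude a ratio of 1 and lie between 2.57 and 2.82.

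CA9 in both long lists and HIF1A in WT As3+ had no peak at a stricter q threshold. By −log10 p the strongest CA9 peak ranked 17529th of 29870 in WT As3+ and 27208th of 76545 in Nrf2 KO control, so it was not near the floor of either list. With only peaks of a −log10 q of at least 5, 8 of 10 genes kept a peak in WT As3+, all but HIF1A and CA9, against 38.2% of all protein-coding genes. In Nrf2 KO control 9 of 10 kept one, all but CA9, against 51% of all genes. At promoters the counts were 7 of 10, against 28.6%, and 9 of 10, against 38.5%. EGLN3 was the additional gene without such a promoter peak in WT As3+. Among the 751 strongest peaks of each list, 0 of 10 genes had a peak in WT As3+, where 3.49% of all genes did, and 1 of 10 in Nrf2 KO control, EGLN3, where 4.27% did.

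The hypoxia response core was a common word under these summits. In windows of 200 bp around the summit it was found at 21 of 30 WT As3+ peaks of the 10 genes and at 32 of 59 Nrf2 KO control peaks. Over all peaks of the lists the shares were 42.1% and 41.3%. Within promoters it was found at 14 of 18 and 14 of 23 peaks, beside 48% and 46.4% of all promoter peaks of those lists and 43.3% of all protein-coding TSS windows of the same length. In windows of 100 bp the promoter counts were 10 of 18 (28.1% of all promoter peaks) and 7 of 23 (27.7%). In windows of 400 bp they were 17 of 18 (71.3%) and 16 of 23 (68.8%). The Nrf2 KO control share was thus close to its list at both of these lengths. In windows of 200 bp, the stricter word ACGTG was found at 7 of 18 and 6 of 23 promoter peaks, beside 15.3% and 14.9%. The TSS windows of the 10 genes themselves held the core at 5 of 10 and ACGTG at 4 of 10. The KLF words CCACGCCC and CCACACCC were found at 1 promoter peak in each list, beside 8.62% and 8.09% of all promoter peaks, and at 7 of 30 and 10 of 59 of all peaks of the genes, beside 10.3% and 9.27%. In the promoter windows the median GC content was 70.2% and 72% with a median of 20 and 18 CpG. Over all promoter peaks of the same lists it was 69% and 67% with 18 and 16 CpG, and over all protein-coding TSS 66.5% with 18. The genes were chosen as HIF targets, for which this core is known, windows of the lists overlap each other, and base composition moves with the word, so its part in these shares was not tested.

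The wider pathway gave similar shares. Of 60 further genes of the HIF pathway and of glycolysis, 51 (85%) had a peak in WT As3+ and 58 (96.7%) in Nrf2 KO control, beside 66.5% and 81% of all protein-coding genes. In WT As3+ these were 14 of 15 HIF pathway regulators, 18 of 23 glycolytic enzymes and transporters, and 19 of 22 other HIF target genes. In Nrf2 KO control the counts were 14, 22 and 22 in the same order. ALDOC, an aldolase, and HIF1AN, the asparaginyl hydroxylase that restrains HIF1A, were the 2 genes without a Nrf2 KO control peak. In Nrf2 KO As3+ none of the 60 had a peak, and in WT control 3 did, beside 0.439% and 2.51% of all genes.

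The 3 WT control peaks show what a site of this pathway looked like when it was listed in untreated WT cells. NDRG1, a stress-responsive HIF target, had a peak 345 bp upstream of its TSS with 22 fragments, 3.92 times the expected number (2.46 to 5.93). In WT As3+ the NDRG1 promoter held 39 fragments, 17.2 times (12.2 to 23.5), and in Nrf2 KO control 26 fragments, 17.4 times (11.3 to 25.4), the strongest of the 60 genes by −log10 p in both. BHLHE40, a circadian repressor induced by hypoxia, had 28 fragments and 5.46 times (3.63 to 7.89) in WT control and 37 fragments and 18.8 times (13.3 to 26) in WT As3+. KDM3A, a histone demethylase, had 23 fragments and 4.95 times (3.14 to 7.43) in WT control. All 3 intervals in WT control span 4.73, the bound below which a site of the 10 genes could go unlisted. The next strongest genes were SLC16A3, a lactate exporter, in WT As3+ with 21 times (14.6 to 29.4), and MXI1, a MYC antagonist, and PFKP, a phosphofructokinase, in Nrf2 KO control with 24.7 (15.3 to 37.8) and 20.6 (12.4 to 32.1) times. Of the peaks of the 10 genes, wherever they lay, the distal EGLN3 site was highest in both lists. Its 14.3 times in WT As3+ was below the values of NDRG1, BHLHE40 and SLC16A3, and its 38.2 times in Nrf2 KO control was above those of NDRG1, MXI1 and PFKP.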

How the data were processed

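The analysis used the KLF4 peak lists of 4 BEAS-2B libraries, 1 per condition. Per the study's methods, the authors aligned 75-nt reads with BWA at default settings. The submitters' processing notes name the build GRCh38/hg38, which was used here, and bcl2fastq 2.17. The peak caller is not given in the sources used here. For each summit the authors deposited a fold enrichment, which is a ratio over the local background, and −log10 p and −log10 q values. The deposited score column repeats −log10 q, multiplied by 10 and cut to a whole number, and was not used.

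The members and lists were chosen with earlier results of these data known. Each interval on an autosome, X or Y counted as 1 peak. Genes, exons and TSS came from GENCODE 44, and sequences from GRCh38. Fragments n and background λ are the values for which (n + 1)/(λ + 1) gives the fold and the upper Poisson tail gives p, and this step was tested on simulated data. All 10 members are named. From the 60 pathway genes, those with a peak in WT control or Nrf2 KO As3+ and the 3 with the largest −log10 p in each other list are named, and ALDOC and HIF1AN were named after their values were seen. Sequences of the strongest promoter peaks are shown for 8 members. The alternatives were other peak thresholds, gene windows, overlap rules, backgrounds and motif windows. No p-value was computed, for want of replicates. The histone mark and input libraries were not used here. The scripts ran in Python 3.11.15 with scipy 1.17.1 for the Poisson tails and intervals, pysam 0.24.0 for sequence, numpy 2.4.6, matplotlib 3.10.9 and pandas 2.3.3.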

Additional observations from a re-analysis of the deposited data

Results flagged for a closer look

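The listing of peaks went opposite ways with As3+ in the 2 genotypes at every gene of the set. In WT cells 10 of 10 genes had a peak after As3+ that was not listed in the control, as had 64% of all protein-coding genes, and in Nrf2 KO cells 10 of 10 had a peak in the control that was not listed after As3+, as had 80.6% of all genes. Absence from a list does not show a difference in binding, and at HIF1A and CA9 in WT and at LDHA and CA9 in Nrf2 KO no peak had a 95% interval wholly above what could go unlisted. The difference between the genotypes was not tested, because each condition has 1 library, and list length moved with it, from 751 to 29870 peaks in WT and from 76545 to 130 in Nrf2 KO.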

How the results depend on the processing

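No paired analysis was possible because each condition has 1 KLF4 library, and for the same reason no replicate could be left out. Of 78 values recomputed for 16 results, 66 stayed within 1.5 times the value reported and 12 moved further. The values are counts, so a change of direction was not assessed. The counts of 0 members in WT control and Nrf2 KO As3+ were also 0 under all 8 alternatives, but only interval overlap could have raised them. The others remove peaks, narrow the window or leave the peaks of the members as they were. Those values are among the 66 and say nothing about robustness. Limiting each list to as many peaks as the WT control list holds, 751, changed the most: members with a peak fell to 0 in WT As3+ and 1 in Nrf2 KO control, members gained with As3+ in WT to 0, members gained in Nrf2 KO control against WT control to 1, members lost with As3+ in Nrf2 KO to 1, and members lost between WT As3+ and Nrf2 KO As3+ to 0. At the stricter −log10 q of 5 or more, promoter peaks numbered 10 in WT As3+ and 12 in Nrf2 KO control. With summits within 200 bp in place of overlap, 16 of the 30 WT As3+ peaks were shared. In windows of 100 bp, the hypoxia core was found at 21 of 59 Nrf2 KO control peaks (24.5% of the list), and a KLF word at 3 of 59 (5%) and at 3 of 30 WT As3+ peaks (5.69%). Each list has a floor that limits what it can show. A site with up to 4.73 times the expected fragments in WT control, or 5.45 times in Nrf2 KO As3+, can go unlisted. In the long lists the same bound was 5.28 times in WT As3+ and 6.11 times in Nrf2 KO control.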

Other observations

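The peaks of the short lists nearest to the 10 genes lay outside their windows. In WT control the nearest summit to a canonical TSS ran from 0.0449 Mb at VEGFA and 0.248 Mb at SLC2A1 to 12.4 Mb at EGLN3, and in Nrf2 KO As3+ from 0.338 Mb at SLC2A1 and 0.342 Mb at VEGFA to 96.7 Mb at CA9.

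The WT As3+ peaks of the 10 genes were wider than their list, with a median of 458 bp against 290 bp, while those of Nrf2 KO control had a median of 271 bp against 267 bp.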
